A study of Mus musculus with 9 samples.

Results

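The platelet-derived growth factor (PDGF) ligands Pdgfa, Pdgfb, Pdgfc and Pdgfd, the receptors Pdgfra and Pdgfrb, and the cell-surface peptidase Fap were described by RNA-seq in MPC clones, cells cultured from mouse pancreatic tumors. The 7 genes were taken by symbol from 18049 genes with a value. The 9 clones came from tumors of mice of the WTg genotype, in which an EL1-Luc/EL1-TAg mouse was crossed with a CAG-Mettl3 mouse, so every clone carried both transgenes. The elastase I promoter drives luciferase and the SV40 large T antigen in acinar cells of the pancreas, and the ubiquitous CAG promoter drives the Mettl3 coding sequence. Tumors were minced, passaged, and single colonies were taken with cloning cylinders, and the cells were grown in serum-containing medium with treatment given as none. The labels' general treatment text names NMS-P937, an inhibitor of the kinase PLK1, but no clone's own label does. The mice's age, and how many mice or tumors the clones came from, were not given in the sources used here, so p-values measure only the spread between these 9 libraries. No clones without the Mettl3 transgene were analysed here.

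PDGFs are disulfide-linked dimers that bind and pair receptor tyrosine kinases at the cell surface. PDGF-A and PDGF-C bind PDGFR-alpha, PDGF-D binds mainly PDGFR-beta, and PDGF-B binds both. PDGF-C and PDGF-D are secreted with a CUB domain that proteases must remove before they can activate a receptor. PDGFR-alpha and PDGFR-beta are characteristic of mesenchymal cells, and PDGFR-beta is also typical of pericytes. In pancreatic tumors PDGF is known as a growth and migration signal for stellate cells and fibroblasts, and FAP, a serine peptidase that cleaves after proline, is a common marker of cancer-associated fibroblasts.

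Levels are given as normalized counts, that is, the deposited log2 value with its offset of 4 removed. They are not corrected for transcript length, so the tests compared levels between libraries and not between genes. Where genes or lists are ranked or set side by side, this is by counts and not by numbers of transcripts. The libraries held between 12198022 and 20453923 reads on genes (median 18082561). The library names carry 3 prefixes, called A (1 library), B (4) and C (4) here, whose meaning was not given. Xist was between 29664 and 32912 normalized counts in the 4 prefix B libraries and at most 8.39 in the others, whereas the Y-linked Ddx3y was between 2376 and 2720 in prefixes A and C and had no reads in prefix B. Prefix and sex of origin therefore cannot be told apart between B and C. Mettl3 reached 2184 normalized counts in prefix A, whereas the range over B and C was 468 to 621. The clones are labelled fibroblasts, and 14 of 15 fibroblast markers, among them Fn1 and Col1a1, lay above the floor of 3 reads in every library (Lum did not). All 16 macrophage markers, led by Lyz2 and C1qb, did too, and made up 2.18% to 3.38% of all counts, against 1.66% to 4.56% for the fibroblast markers. Of the 6 epithelial markers, Epcam had no reads and Krt8 at most 1.29 normalized counts. Another 2 lay above the floor in every library. The list, led by Krt19 and Krt7, summed to 20.3 to 314 normalized counts. Since these are bulk samples, fewer cells of a type and less RNA per cell cannot be told apart.

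All 7 genes lay above the floor of 3 reads in every library, as did 13533 of the 18049 genes. Pdgfra, Pdgfrb and Fap were each highest in the prefix A library, and Pdgfa was the most even of the 7. Among genes with a mean within 2-fold of its own, the SD of Pdgfra over the 9 clones on the log2 scale lay at the 99.1 percentile, that of Pdgfrb at the 96.3 and that of Pdgfb at the 95.2 percentile. The SD of Pdgfd lay at the 91.6, of Pdgfc at the 89.5, of Fap at the 74.3 and of Pdgfa at the 70.0 percentile. Being highest of all 9 in prefix A was common, as 18.7% of the 16962 genes tested were. The position of 3 of 7 members there is read against that share.

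**Figure D1:**
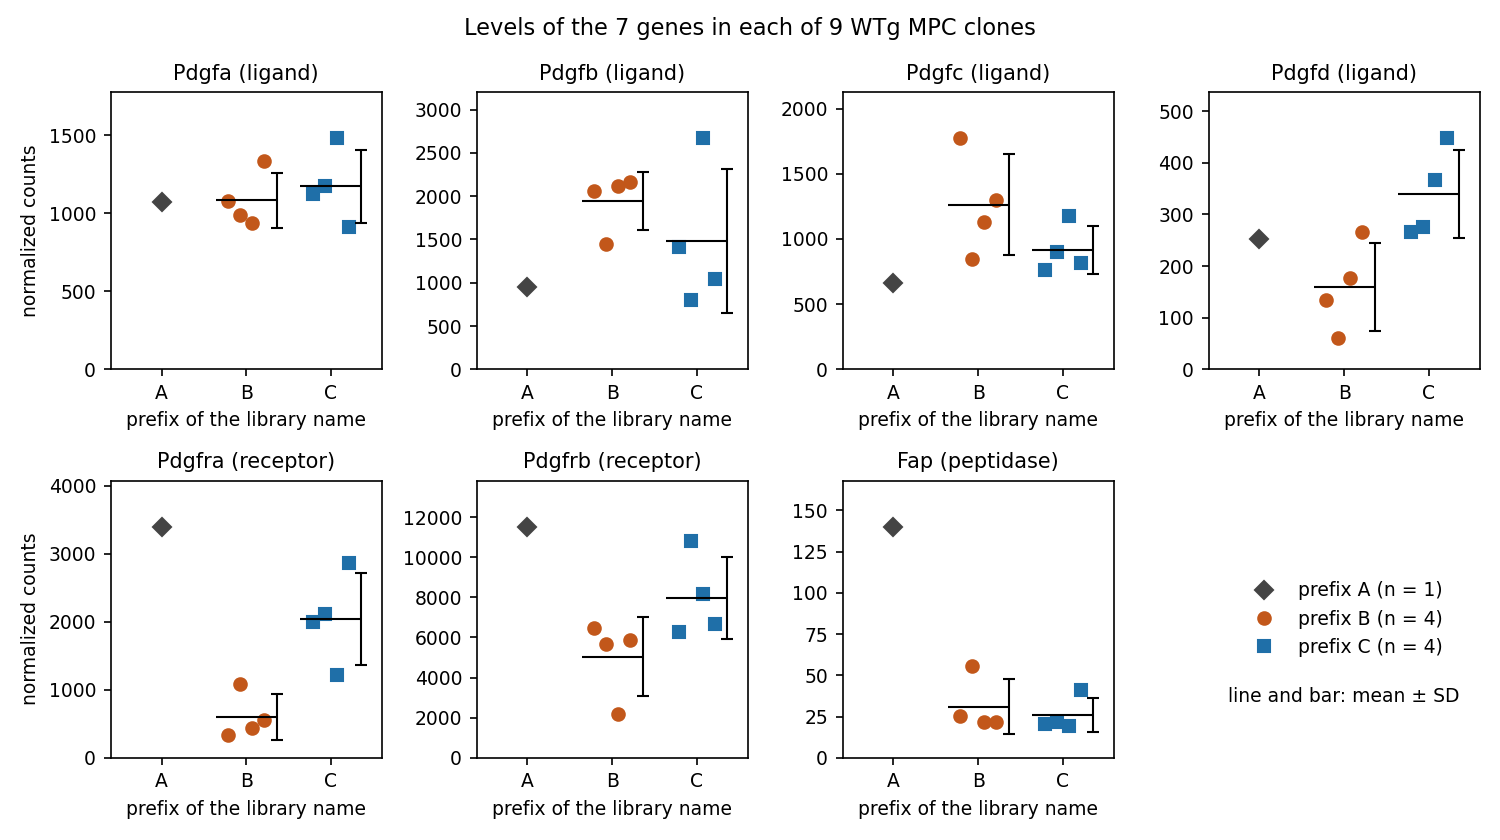
Normalized counts (y axis) of each gene in 9 WTg MPC clones, by the prefix of the library name (x axis), with points for libraries and the line and bar for the mean ± SD of prefixes B and C (n = 4 each). Pdgfra and Pdgfd do not overlap between B and C, and Pdgfra, Pdgfrb and Fap are highest in the prefix A library.

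Pdgfa, the PDGF-A chain (ENSMUSG00000025856; chromosome 5, 138976014 to 139000792, RefSeq GRCm38.p6), varied least. It was 1074 normalized counts in prefix A, 1079, 991, 936 and 1334 in prefix B libraries 1 to 4, and 1124, 1175, 1481 and 913 in prefix C libraries 1 to 4. The mean was 1123 ± 186 (SD, n = 9), and the highest library was 1.62 times the lowest. The prefixes overlapped throughout, and the prefix C minus prefix B difference was 0.10 ± 0.16 (log2, SE; limma adjusted p = 0.740). With 1 library left out this difference lay between -0.01 (without prefix C library 3, the highest library) and 0.22 (without prefix C library 4, the lowest).

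Pdgfb, the PDGF-B chain (ENSMUSG00000000489; chromosome 15, 79995865 to 80024614), was 948 normalized counts in prefix A, 2056, 1450, 2120 and 2164 in prefix B, and 1414, 805, 2669 and 1043 in prefix C. Over the 9 clones it was 1630 ± 648 (SD). Prefix C held both the lowest and the highest library, so that the groups overlapped, and the C minus B difference was -0.53 ± 0.33 (log2, SE; limma adjusted p = 0.415). It was -0.86 without prefix C library 3 (limma adjusted p = 0.0912) and -0.28 without prefix C library 2. Within prefix B, 3 libraries lay between 2056 and 2164 and library 2 stood below them.

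Pdgfc, the PDGF-C chain (ENSMUSG00000028019; chromosome 3, 81036416 to 81214040), was lowest in prefix A at 665 normalized counts. It was 1772, 849, 1133 and 1300 in prefix B and 761, 899, 1174 and 814 in prefix C, with a mean of 1041 ± 346 (SD, n = 9). The groups overlapped, and the difference of -0.44 ± 0.22 (log2, SE) did not pass (limma adjusted p = 0.320). Without prefix B library 1, the highest, it was -0.26.

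Pdgfd, the PDGF-D chain (ENSMUSG00000032006; chromosome 9, 6168363 to 6534284), was 252 normalized counts in prefix A, 135, 61.2, 177 and 265 in prefix B, and 266, 276, 367 and 448 in prefix C. Its mean was 250 ± 116 (SD, n = 9). All 4 prefix C libraries lay above all 4 of prefix B, but the nearest pair, prefix B library 4 and prefix C library 1, stood on 210 and 206 reads, and their 95% Wilson intervals (231 to 303 and 232 to 305 normalized counts, counting error only) lay almost on each other. The C minus B difference was 1.23 ± 0.41 (log2, SE) and did not pass (limma adjusted p = 0.193).

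The highest library was 10.2 times the lowest for Pdgfra and 5.33 times for Pdgfrb, against 7.31 for Pdgfd, 3.31 for Pdgfb and 2.66 for Pdgfc. Pdgfra, which encodes PDGFR-alpha (ENSMUSG00000029231; chromosome 5, 75151322 to 75198206), was 3396 normalized counts in prefix A, 332, 1085, 431 and 549 in prefix B, and 1993, 2112, 1214 and 2859 in prefix C. The mean was 1552 ± 1101 (SD, n = 9). Every prefix C library lay above every prefix B library, and the means were 2045 ± 673 and 599 ± 336 (SD, n = 4 each), a ratio of 3.41. The nearest pair, prefix B library 2 (95% Wilson interval 1011 to 1165) and prefix C library 3 (1136 to 1298), again overlapped in counting error.

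The fitted C minus B difference of Pdgfra was 1.85 ± 0.38 (log2, SE), with a limma adjusted p = 0.117, so it did not pass over all genes. It ranked 132 of 16962 genes by p. Without prefix C library 3 the difference was 2.08 with a limma adjusted p of 0.0477, in a fit that called 242 genes in place of 29. That library also had the most acinar marker RNA, 2415 normalized counts against at most 313 in prefix B. As a share of all counts it was 0.00955%, against 0.000730%, 0.00154% and 0.000679% in prefix C libraries 1, 2 and 4. Whether this had a part in the result was not tested.

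Pdgfrb, which encodes PDGFR-beta (ENSMUSG00000024620; chromosome 18, 61045127 to 61085067), was 11517 normalized counts in prefix A, 6474, 5652, 2162 and 5886 in prefix B, and 6247, 10800, 8176 and 6687 in prefix C. The mean was 7067 ± 2819 (SD, n = 9). Prefix B library 3 was the lowest, below all others by more than the counting interval of each, and B library 1 lay above C library 1, so the groups overlapped. The C minus B difference was 0.75 ± 0.35 (log2, SE; limma adjusted p = 0.287), and was 0.38 without prefix B library 3.

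The receptors did not keep a fixed proportion. Pdgfra counts as a share of Pdgfrb counts, used only to compare libraries since neither is corrected for length, were 29.5% in prefix A. They were 5.13%, 19.2%, 19.9% and 9.32% in prefix B and 31.9%, 19.6%, 14.9% and 42.8% in prefix C. Low Pdgfrb in prefix B library 3 thus went with low Pdgfra, while library 1 of the same prefix had low Pdgfra at the median Pdgfrb level of 6474.

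Fap, the fibroblast activation protein (ENSMUSG00000000392; chromosome 2, 62500936 to 62575509), had low counts in 8 of 9 libraries. It was 140 normalized counts in prefix A (64 reads; 95% Wilson interval 110 to 179). In prefix B it was 25.4, 55.5, 21.7 and 21.5, and in prefix C 20.7, 21.9, 19.6 and 41.4. The prefix A level was 4.92 times the mean of the other 8, which was 28.5 ± 13.0 (SD). Among the other 8, the interval of prefix B library 2 (39 reads, 40.6 to 75.9) lay above those of the 6 libraries with 14 to 20 reads. That of prefix C library 4 (28 reads, 28.6 to 59.8) overlapped all of these, so that the remaining libraries had no order beyond counting error. The C minus B difference was -0.20 ± 0.39 (log2, SE; limma adjusted p = 0.794), and was 0.11 without prefix B library 2.

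Across all genes, 29 of 16962 (0.171%) passed between prefixes B and C (limma adjusted p under 0.05), 17 higher and 12 lower in C, and none of the 7 members was among them. At an unadjusted p under 0.05 there were 3148 genes, with Pdgfra and Pdgfd among them. Of all genes, 4.24% were higher in every prefix C library than in every prefix B library and 5.25% were lower. Of the 7 members, 2 (Pdgfra and Pdgfd) were higher without overlap and 0 lower. The median difference of the 7 was 0.10 against -0.02 over all genes (log2).

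**Figure D2:**
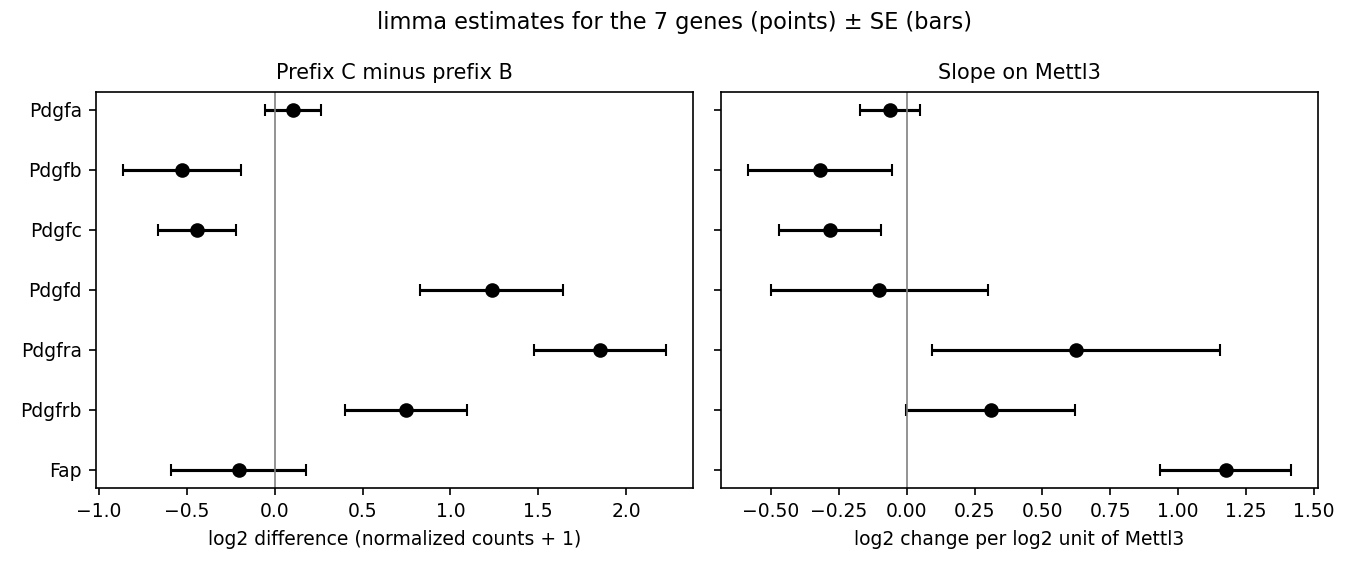
limma estimates (points) and SE (bars) of the 7 genes: the prefix C minus prefix B difference in log2(normalized counts + 1) on the left (n = 4 each) and the change per log2 unit of Mettl3 on the right (n = 9). Pdgfra has the largest difference of the 7 between the prefixes, 1.85, and Fap the steepest slope on Mettl3, 1.18.

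The genes that act on, with or after the PDGF receptors were examined as lists, and none of their members passed between B and C either. Of the 7 proteases that can process the ligands or their activators, 6 had a positive difference, with a median of 0.11. Furin, a proprotein convertase, was even at 4229 ± 411 normalized counts (SD, n = 9). Plau, the urokinase that can activate PDGF-D, was 3470 ± 1183, with a C minus B difference of 0.73 ± 0.18 (log2, SE; limma adjusted p = 0.151). Plat, the tissue plasminogen activator that cleaves PDGF-C, is named although it was chosen after its values were seen; it ranged from 337 to 2679.

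Of the other class III receptor kinases, the receptors most alike in sequence to the PDGF receptors, Csf1r was abundant and Kit close to the floor. Csf1r, the receptor for macrophage colony-stimulating factor and 1 of the 16 macrophage markers, was 36202 ± 12444 normalized counts (SD, n = 9), and Kit, the stem cell factor receptor, 4.23 ± 4.89. Csf1r differed by -0.71 ± 0.23 between C and B (log2, SE; limma adjusted p = 0.191), opposite in sign to both PDGF receptors. The VEGF-side ligands of the same growth factor family were led by Vegfa (5424 ± 1891) and Vegfd (953 ± 892), with 3 of 5 positive differences.

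The 4 co-receptors were led by Lrp1 (105592 ± 13987 normalized counts), an endocytic receptor that binds PDGFR-beta, and Nrp2 (15904 ± 1747), and all 4 had negative differences, with a median of -0.25. The summed level of the 22 receptor adaptors and effectors lay between 45177 and 46810 normalized counts in all 9 libraries, with a median difference of -0.07 and 9 of 22 positive. Single members were less even than the sum, up to a 2.53-fold range for the Src family kinase gene Yes1, chosen after its values were seen. Ptpn11, the phosphatase SHP2, was 5373 ± 554 and Grb2, the adaptor that recruits the Ras exchange factor, 5238 ± 876. Of the 13 negative regulators, led by the receptor phosphatase Ptprj (7299 ± 1739) and the ubiquitin ligase Cbl (5486 ± 1072), 6 had positive differences, with a median of -0.13. Both named genes were below zero at an unadjusted limma p under 0.05 (Ptprj -0.43 with adjusted p = 0.198, Cbl -0.42 with adjusted p = 0.142). That threshold was met by 3148 of all 16962 genes. Others of the list met it in both directions. Among them, chosen after their values were seen, Dusp6 (-0.43) was below zero and Dusp4 (0.66) and Cblb (0.31) were above.

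The 13 immediate-early genes, the transcripts that rise first after PDGF stimulation, were led by Jun (3588 ± 292 normalized counts) and Junb (3422 ± 546), with 10 of 13 positive differences and a median of 0.16. Their summed level was highest in prefix A, at 22758 against 11741 to 19892 in the other libraries. Among the peptidases related to Fap and its inhibitor, 4 of the 7 in the list were tested. Dpp8 was 3971 ± 213 and Prep, a prolyl endopeptidase, 2060 ± 282. Both are cytosolic.

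Of the cell type lists, 13 of 15 fibroblast markers had a positive C minus B difference (median 0.64) and 16 of 16 macrophage markers a negative one (median -0.36), with none passing. The fibroblast markers that went the other way, Dcn (-1.79 ± 0.60) and Lum (-2.07 ± 1.05; log2, SE), had the largest differences of that list. Summed fibroblast markers were 421215 to 680278 normalized counts in prefix B, 594027 to 1176350 in prefix C and 1011290 in prefix A. Summed macrophage markers were 718306 to 820533, 562536 to 882685 and 684315 in the same order. These sums overlapped between prefixes, and their part in the receptor and ligand differences was not tested beyond the relations given next. Pericyte and smooth muscle markers, led by Acta2 and Tagln, had 7 of 10 positive differences (median 0.50), and Kcnj8, a pericyte channel gene, was at or under the floor in every library. Des, the intermediate filament gene desmin, chosen after its values were seen, went the other way from the list's median, with a difference of -2.41 ± 1.31 that did not pass (log2, SE; limma adjusted p = 0.349) and a range of 142 to 13119 normalized counts.

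Endothelial markers had a median of -0.04 for 5 genes and summed to 403 to 932 normalized counts, and epithelial markers, led by Krt19 and Krt7, a median of 1.45 for 4 genes and a sum of 20.3 to 314. Platelet and megakaryocyte markers had a median of -0.33 for 4 genes and summed to 1118 to 5790, most of it the chemokine gene Pf4, at 1015 to 5730. The others were low: Gp1bb at 5.79 to 103, Itga2b at 11.2 to 41.6 and Ppbp at 4.43 to 35.0. Pf4 alone thus sets the sum, which does not show platelet RNA as such. Acinar markers, led by Cela1 and Ctrb1, had a median of 2.58 for 6 genes and summed to 144 to 2415 normalized counts. That median does not describe prefix C as a whole. Ctrb1 was 610 normalized counts in prefix C library 3, 43.7 in library 2 and 0 in libraries 1 and 4. Prss2, Cela2a, Cpa1 and Amy2a5 were likewise highest in library 3 and at most 1.29 in libraries 1 and 4. Cela1 had a difference of -0.12 ± 0.25 (log2, SE).

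Relations between members, and of members with the mean z-score of the fibroblast or macrophage markers, were tested over the 9 clones with exact two-sided permutation tests, adjusted over 12 relations. Pdgfc was lower where Pdgfra was higher, and both receptors were higher where the mean z-score of the fibroblast markers was. These values share library, depth and scaling. For Pdgfc and Pdgfra, Pearson's r was -0.888 (exact permutation p = 0.00122, adjusted p = 0.00731) and Spearman's rho -0.817 (exact permutation p = 0.0108, adjusted p = 0.0431). With the 2 clones farthest from the median of Pdgfc left out, r was -0.781 (adjusted exact permutation p = 0.227). Without prefix A it was -0.855 (adjusted exact permutation p = 0.0701). Centred within prefixes B and C it was -0.873 (exact permutation p = 0.0278, adjusted p = 0.153). The sign and size of r thus held in each of these, while the adjusted p passed only over all 9 clones.

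Pdgfrb followed the fibroblast score with r = 0.867 (exact permutation p = 0.000948, adjusted p = 0.00731) and rho = 0.867 (exact permutation p = 0.00451, adjusted p = 0.0271). Pdgfra did with r = 0.831 (exact permutation p = 0.00629, adjusted p = 0.0252) and rho = 0.883 (exact permutation p = 0.00308, adjusted p = 0.0271). Centred within prefixes, r was 0.718 for Pdgfrb and 0.479 for Pdgfra, and neither passed after adjustment. Prefix B library 3 was lowest and prefix A highest in both Pdgfrb and the fibroblast score.

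The receptors themselves were related by r = 0.643 (exact permutation p = 0.0452, adjusted p = 0.136) and rho = 0.717 (exact permutation p = 0.0369, adjusted p = 0.111), which did not pass, and centred within prefixes r was 0.0864. Neither ligand that binds PDGFR-beta passed against Pdgfrb: r was -0.531 for Pdgfb (adjusted exact permutation p = 0.226) and 0.315 for Pdgfd (adjusted exact permutation p = 0.402). Pdgfa had an r of -0.0773 with Pdgfra (adjusted exact permutation p = 0.841). Pdgfb and Pdgfc had r of 0.599 and 0.568 with the macrophage score (adjusted exact permutation p = 0.219 for each). Fap had r of 0.507 with Pdgfra, 0.374 with Pdgfrb and 0.491 with the fibroblast score, none of which passed (adjusted exact permutation p of 0.230, 0.358 and 0.230).

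**Figure D3:**
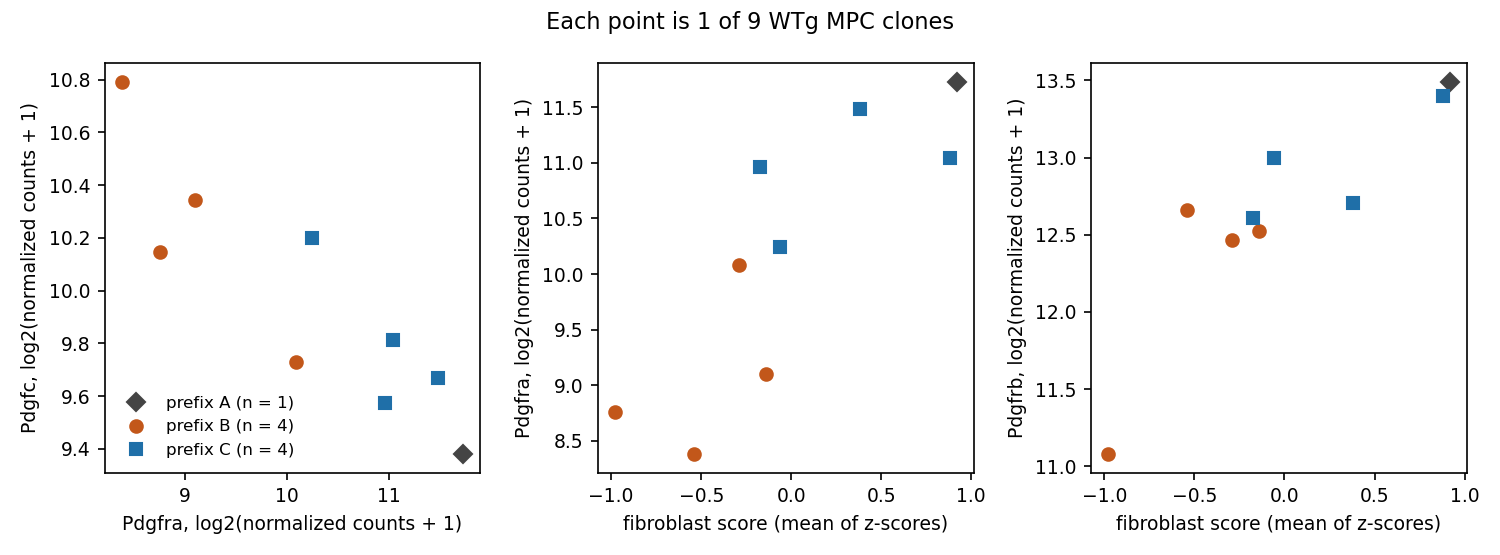
Pdgfc against Pdgfra (left) and Pdgfra and Pdgfrb against the fibroblast score (middle and right), with 1 point for each of 9 clones, levels as log2(normalized counts + 1) and the score as the mean z-score of 15 markers. Pdgfc falls as Pdgfra rises (r = -0.888), and prefix B clones lie at the low end of Pdgfra.

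Since all clones carry the Mettl3 transgene, the slope of each gene on the log2 level of Mettl3 was fitted over the 9 clones, and 417 of 16961 genes (2.46%) passed (limma adjusted p under 0.05), 55 with positive and 362 with negative slopes. Voom on the recovered reads called 69, with 45 positive and 24 negative slopes. On simulated data 31.0% of limma's calls for this slope were unchanged genes, against 4.31% to 5.71% of voom's. There the limma threshold of 0.05 was not held, so the limma count and adjusted p-values of this slope are too lenient. Fap was the only one of the 7 members that passed. Its slope was 1.18 ± 0.24 (log2 per log2 unit of Mettl3 ± SE, limma adjusted p = 0.0364), and 1.17 under voom (limma adjusted p = 0.0263). The prefix A library, at 2184 normalized counts of Mettl3, carries this slope. It was also the shallowest, with 12198022 reads on genes against 16526389 to 20453923 in the others. It had 15980 genes detected against 16577 to 16789. Whether its depth had a part in the negative slopes was not tested. Without the prefix A library 0 genes passed in limma (1775 at an unadjusted p under 0.05), and the slope of Fap was 1.75 ± 1.22 (limma adjusted p = 0.603). With the prefix A library kept, the slope stayed between 1.15 and 1.24 (log2) when any 1 other library was left out, and the limma adjusted p, between 0.0288 and 0.0686, no longer passed without prefix B library 1 or 4 or prefix C library 1, 2 or 3.

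The other 6 members had limma adjusted p-values between 0.530 (Pdgfc) and 0.926 (Pdgfd). Pdgfra had a slope of 0.62 ± 0.53 and Pdgfrb of 0.31 ± 0.31 (log2, SE), and without prefix A these were -4.21 and -2.96 over a much narrower range of Mettl3. Pdgfd went from -0.10 ± 0.40 to -4.75 ± 1.22 (limma adjusted p = 0.363) and Pdgfa from -0.06 to -0.89 (limma adjusted p = 0.532) when that library was left out, and neither passed. In the lists, Cd14 (0.40 ± 0.07, limma adjusted p = 0.0123), the lipopolysaccharide co-receptor of macrophages, and Fos (1.26 ± 0.23, limma adjusted p = 0.0230), an immediate-early transcription factor, were the genes that passed. Of the 13 immediate-early genes, 11 had positive slopes, with a median of 0.36. Fibroblast markers had 13 of 15 positive slopes with a median of 0.21 and macrophage markers 6 of 16 with a median of -0.03, against a median of 0.00 over all genes. The slope of Fap was not tested apart from the other differences of the prefix A library, and Mettl3 level and prefix A cannot be told apart.

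**Figure D4:**
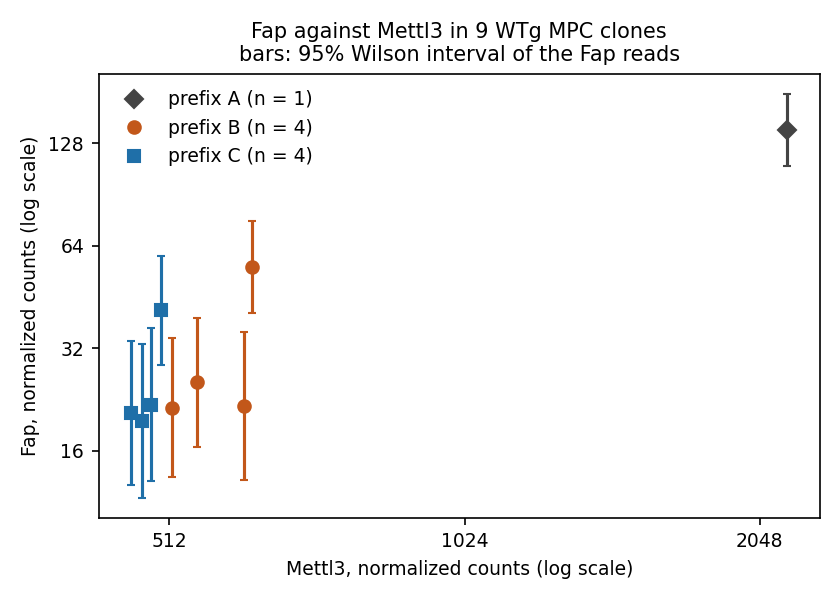
Fap against Mettl3 in normalized counts on log axes, with 1 point for each of 9 clones and bars for the 95% Wilson interval of the Fap reads (counting error only). The prefix A library lies alone at 2184 for Mettl3 and 140 for Fap, and the other 8 libraries lie between 468 and 621 for Mettl3 and between 19.6 and 55.5 for Fap.

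The genes whose pattern over the 9 clones was most like each member's are given as a description, out of the 12300 genes whose mean reached 50 normalized counts (12301 for Fap). They were picked for the highest r among so many genes over 9 libraries, and whether chance alone gives such values was not tested. The r centred within prefixes uses the same libraries and is no separate check. Pdgfa was most like Unc5b, a netrin receptor (r = 0.956), Gmds (0.919) and Clic4 (0.909). Centred, these were 0.973, 0.957 and 0.922. Pdgfb was most like the zinc finger gene Patz1 (0.993) and the bZIP factors Atf3 (0.983) and Cebpg (0.976). Centred within prefixes, r for these 3 was 0.990, 0.991 and 0.971. Pdgfc was most like Zfp398 (0.971), AW554918 (0.954) and 4931414P19Rik (0.931), or 0.945, 0.909 and 0.897 when centred.

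Pdgfd was most like Rnd3 (0.935), the metalloprotease gene Pappa (0.933) and Syt13 (0.926), or 0.895, 0.891 and 0.870 when centred. Pdgfra was most like Camk2g (0.981), Trim24 (0.974) and Nectin2 (0.972), which centred within prefixes came to 0.910, 0.869 and 0.875. Pdgfrb was most like Msrb3 (0.983), Fads3 (0.975) and the netrin family receptor Neo1 (0.973), or 0.977, 0.966 and 0.955 when centred. Fap was most like Zfp970 (0.949), Tgds (0.947) and Copz1 (0.938), or 0.956, 0.815 and 0.833 when centred.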

How the data were processed

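RNA of 9 WTg MPC clones was sequenced from stranded mRNA libraries. The labels name ISOGEN for RNA extraction and the study's methods a column kit. Per the submitters' processing notes, reads were handled with FastQC 0.11.9, STAR 2.7.10 and RSEM 1.3.3 on GRCm38. The authors deposited log2 values per gene, which start at 2, so that 4 had been added to scaled counts before the log2. Normalized counts were 2 to the power of the value, minus 4. In each library, 100% of the values below 1000 reads were whole multiples of 1 read's worth (within 0.1 read), which gave reads per gene and depths of 12198022 to 20453923. One read was worth 1.26 to 2.19 normalized counts, and 3 reads, used as the floor, 3.79 to 6.56. The scaling was fixed by the authors. The offset compresses changes of low genes in the deposited values, and it was removed before the fits.

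Columns were assigned to the single group only, and 6 columns of other samples in the table were not used. No 2 libraries agreed within sampling noise. The log2(normalized counts + 1) values of all genes whose mean reached 1 were fitted with limma 3.58.1 (trend) in R 4.3.3, for prefix C minus prefix B (8 libraries) and for the slope on Mettl3 (9 libraries), with Benjamini-Hochberg adjustment over all genes. Voom on the recovered reads was an alternative. Both were tested on simulated data, where limma's calls for the Mettl3 slope held a larger share of unchanged genes than voom's. Correlations used exact permutations of all 362880 pairings (scipy 1.17.1), and of 576 arrangements within prefixes. Identifiers matched names for 18033 of 18049 rows. Coordinates are those of RefSeq GRCm38.p6.

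The 7 members and 16 gene lists were chosen with earlier results of these data known. Named are all members, the 2 genes of each list with the highest mean, list genes with at most 3 reads in every library, list genes that passed (up to 2 per list and fit), and the 3 genes most correlated with each member. The stellate cell marker list is not reported here as a whole because it holds an item not reported here.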

Additional observations from a re-analysis of the deposited data

Results flagged for a closer look

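In 21 groups of 4 or 9 libraries (7 genes, each over all clones, prefix B and prefix C), the highest or lowest library's gap to its neighbour was divided by the range of the group, and 4 groups held a library that stood apart at the 95% level of Dixon's test. Chance gives about 1 in 20 for a single group of normally distributed values. The 21 groups share libraries and Fap rests on few reads, so the 4 groups were not tested against that share. Of these, 3 concern Fap, whose prefix A library stood apart over the 9 clones (gap 0.702 of the range), whose library 2 was high within prefix B (0.883) and whose library 4 was high within prefix C (0.896). The prefix B and C libraries rest on 39 and 28 reads of Fap, against 14 to 20 in the remaining 6. Pdgfb was low in library 2 of prefix B (0.849), at 1450 normalized counts against 2056 to 2164 in the others. The same library had the highest Pdgfra (1085) and the lowest Pdgfd (61.2) of prefix B. No cause of these values was tested.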

How the results depend on the processing

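Mean levels of the members moved by less than their SD under other scalings. Leaving out 1 of 9 libraries cannot move a mean by that much, so the same rule could not fail without prefix A. There the mean of Fap was 28.5 normalized counts in place of 40.9, of Pdgfra 1322 in place of 1552 and of Pdgfrb 6511 in place of 7067. The means of Pdgfb and Pdgfc rose, from 1630 to 1715 and from 1041 to 1088. Between prefixes B and C, 29 genes passed, 15 without the filter on low values, 17 with limma without a trend, and between 9 and 242 with 1 library left out (242 without prefix C library 3). The sign turned for Pdgfa (-0.0143 to 0.22 with 1 library left out, the lowest without prefix C library 3) and Fap (-0.45 to 0.11, the highest without prefix B library 2), neither of which passed. Pdgfra stayed between 1.62 and 2.19 there and between 1.85 and 1.87 under the other alternatives. For the slope on Mettl3, 417 genes passed, 656 with a pseudocount of 0.1, 238 with a minimum mean of 50 (where Fap, at a mean of 40.9, was not tested), 69 with voom (45 positive, 24 negative), 313 to 517 with 1 library of prefix B or C left out, and 0 without prefix A. Without prefix A the slopes turned sign for Pdgfb (0.80), Pdgfc (0.51), Pdgfra (-4.21) and Pdgfrb (-2.96). Of the 12 relations, 3 passed over the 9 clones and 0 without prefix A, 0 without the 2 farthest clones and 0 centred within prefixes. The r turned sign for Fap with Pdgfrb (-0.0064 without prefix A), Pdgfa with Pdgfra (0.183 without the 2 farthest clones) and Pdgfd with Pdgfrb (-0.223 centred within prefixes). The causes were not tested. The planned quasi-likelihood count test was not run, since the deposited unit is log2. No paired analysis was possible because the labels give a single group. Depth limits Fap most, at 14 to 64 reads per library.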
